A study of Ciona robusta with 16 samples.

Results

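The transition from the initial gastrula to the late neurula was examined in whole embryos of the ascidian Ciona robusta, a marine invertebrate chordate whose tadpole larva is built from few cells of largely fixed lineage. The members are the 4 libraries carrying those stage labels, 2 for the initial gastrula and 2 for the late neurula, out of 16 libraries of a time course of 8 stages from the unfertilized egg to the larva. All embryos were wild type. The initial gastrula embryos were at stage 10, 4.5 h after fertilization, and the late neurula embryos at stage 16, 7.4 h after fertilization. No treatment separates the groups, so the comparison is of 2 stages 2.9 h apart. Each sample pooled about 150 dechorionated embryos of hermaphrodite adults, and polyadenylated RNA was read with paired 61 bp reads. Of the 18424 rows of the deposited tables, the 18388 genes of the KY21 annotation are described. They carry KY21 identifiers, and a gene is also named here by the closest human or frog match that the study lists, which 3832 genes have. A human match is a resemblance and does not make the gene an ortholog. The 1284 frog matches come from pairs that the study lists as one-to-one orthologs, by best match in both directions, which was not checked here.

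At gastrulation the ascidian embryo folds its endoderm and mesoderm inward. During neurulation the neural plate rolls up into a tube, the notochord cells intercalate into a column beneath it, and the tail muscle cells flank the notochord. The egg loads the early embryo with maternal mRNA, which is cleared while transcription from the embryo's own genome takes over.

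The 4 libraries held between 24624297 and 26898093 counts. Gene counts were compared with edgeR's quasi-likelihood test, in which the spread was estimated from all 16 libraries, and a gene was called when its p-value adjusted over all tested rows (Benjamini-Hochberg) was under 0.05. A log2 fold change is late neurula over initial gastrula, so a positive value is a rise, and its standard error (SE) is given with it. Levels are given as TPM, a relative transcript abundance that is scaled for transcript length and for the library. With 2 libraries per stage, the p-values rest on the spread between few samples, and no rank or permutation test of these 4 values could reach 0.05.

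Between the stages, 2292 of 14623 tested genes rose, which is 15.7%, and 2077 fell, which is 14.2%, so that 29.9% were called. The rises were larger than the falls. The median log2 fold change was 2.51 among the genes that rose and -1.01 among those that fell, and 673 genes rose by at least 4 on the log2 scale against 13 that fell as far. The TPM values of the 2 stages did not overlap for 4346 of the 4369 called genes, whereas among all tested genes 27.2% had non-overlapping values that were higher in the late neurula and 37.8% had non-overlapping values that were lower. Without late neurula replicate 1, 1643 genes rose and 1059 fell, and the falls were the calls that depended most on a single library. The split between rises and falls also depended on how the libraries were scaled. The median change of all tested genes was 0.01 with TMM factors, which assume that most genes do not change, and -0.20 with library totals alone, under which 1873 genes rose and 3232 fell. With limma on log2(TPM + 1) 2178 rose and 3232 fell, with RLE factors 2436 rose and 1807 fell, and with only the 4 libraries 1966 rose and 1332 fell. No gene was called in opposite directions under any of these settings.

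**Figure D1:**
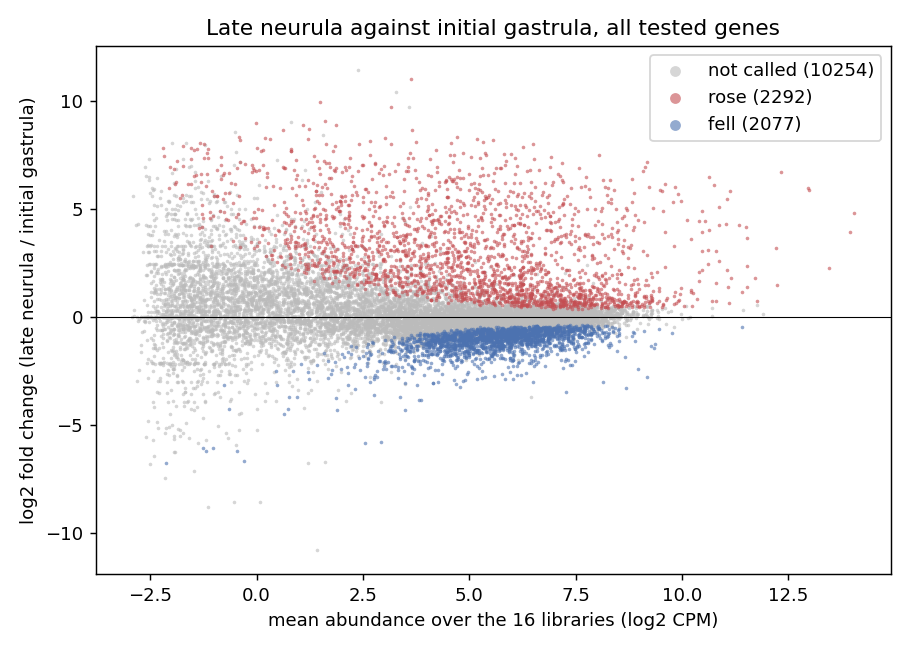
Log2 fold change (late neurula over initial gastrula, vertical axis) against mean abundance over the 16 libraries (log2 CPM, counts scaled to the library total, horizontal axis) for the 14623 tested genes. The 2292 genes that rose (red) reach far larger changes than the 2077 that fell (blue), most of which lie within 2 log2 units of 0.

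The genes with a symbol are the background for every list below, and their shares of rises and falls were not those of all genes. Of the 3814 tested genes with a symbol, 482 rose (12.6%) and 929 fell (24.4%), with a median log2 fold change of -0.23. Of the 10809 without one, 16.7% rose and 10.6% fell. The symbols come from entries for proteins that the study measured, of which only a part was used here. When any 1 library was left out, counts of up to 4 members of a list shifted by at most 4 genes, and larger counts that moved by over 1.5 times are given with the list.

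Many transcription factors of development rose. Of 24 tested members 13 rose and 2 fell, with a median log2 fold change of 1.79 that stayed positive under every scaling tried (1.5 to 1.86). MEIS2 (KY21.Chr10.644), a homeodomain cofactor of Hox proteins, was at 0.597 and 1.20 TPM in the initial gastrula and at 87.7 and 64.2 in the late neurula. Its log2 fold change was 6.60 (SE 0.42, adjusted p = 9e-08). PAX7 (KY21.Chr10.288), a paired-box factor that in vertebrates marks the dorsal neural tube and neural crest, went from 1.49 and 0.217 TPM to 52.2 and 59.0, a log2 fold change of 6.23 (SE 0.66, adjusted p = 1.3e-05). Both genes were below 1.5 TPM in the initial gastrula libraries and above 50 in the late neurula libraries. MYT1L (KY21.Chr1.1192), a zinc-finger factor of neuronal differentiation in mammals, rose from 8.71 and 5.81 TPM to 85.7 and 83.2. MSX2 (KY21.Chr2.1031), a homeobox factor of the neural plate border in vertebrates, was at 21.5 and 11.6 TPM before and at 80.3 and 64.1 after. Its log2 fold change of 2.33 (adjusted p = 0.0055) lost its call without initial gastrula replicate 2 (1.93, adjusted p = 0.056).

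The orphan nuclear receptor NR6A1 (KY21.Chr1.1063) was the most abundant of the developmental factors that rose. It stood at 78.4 and 67.4 TPM in the initial gastrula and at 759 and 739 in the late neurula (log2 fold change 3.57, SE 0.17, adjusted p = 8.4e-09). In the other stages its mean level did not pass 197 TPM, which was reached in the mid tailbud, so the late neurula held its highest level of the series. ZEB1 (KY21.Chr1.2096), a repressor of epithelial genes in vertebrates, rose with a log2 fold change of 2.88, GRHL1 (KY21.Chr1.1779), an epidermal factor of the grainyhead family, with 3.47, and TEAD4 (KY21.Chr14.532), a partner of YAP, with 1.84. ARID3A (KY21.Chr11.1304) went from 2.13 and 2.0 TPM to 22.6 and 21.8, and its mean reached 958 TPM in the mid tailbud, whereas MYCN (KY21.Chr1.384), a growth-promoting factor, rose from 57.9 and 49.8 TPM to 176 and 136 and held 146 TPM there. Of the factors that fell, TP63 (KY21.Chr1.1577), a p53 relative of stratified epithelia in vertebrates, dropped by 1.44 on the log2 scale, from 23.7 and 28.4 TPM to 6.75 and 9.93, after a mean of 107 TPM in the unfertilized egg.

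Of 21 tested general and ubiquitous factors 3 rose (14.3%, against 12.6% of all genes with a symbol) and 7 fell (33.3%, against 24.4%). Their median log2 fold change was -0.37 (-0.61 to -0.31 over the scalings), beside -0.23 for all genes with a symbol, and it was -0.23 without initial gastrula replicate 2. Without late neurula replicate 1 or replicate 2 the number that fell was 4. TBP (KY21.Chr10.163), which nucleates the transcription initiation complex, was at 457 and 374 TPM in the initial gastrula and at 136 and 133 in the late neurula. That is a log2 fold change of -1.42 (SE 0.17, adjusted p = 2.7e-05). ZNF367 (KY21.Chr5.237), a zinc-finger factor, fell by 1.75 on the log2 scale. MXI1 (KY21.Chr1.459), an antagonist of MYC, was the largest of the 3 rises and went from 179 and 204 TPM to 432 and 477.

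**Figure D2:**
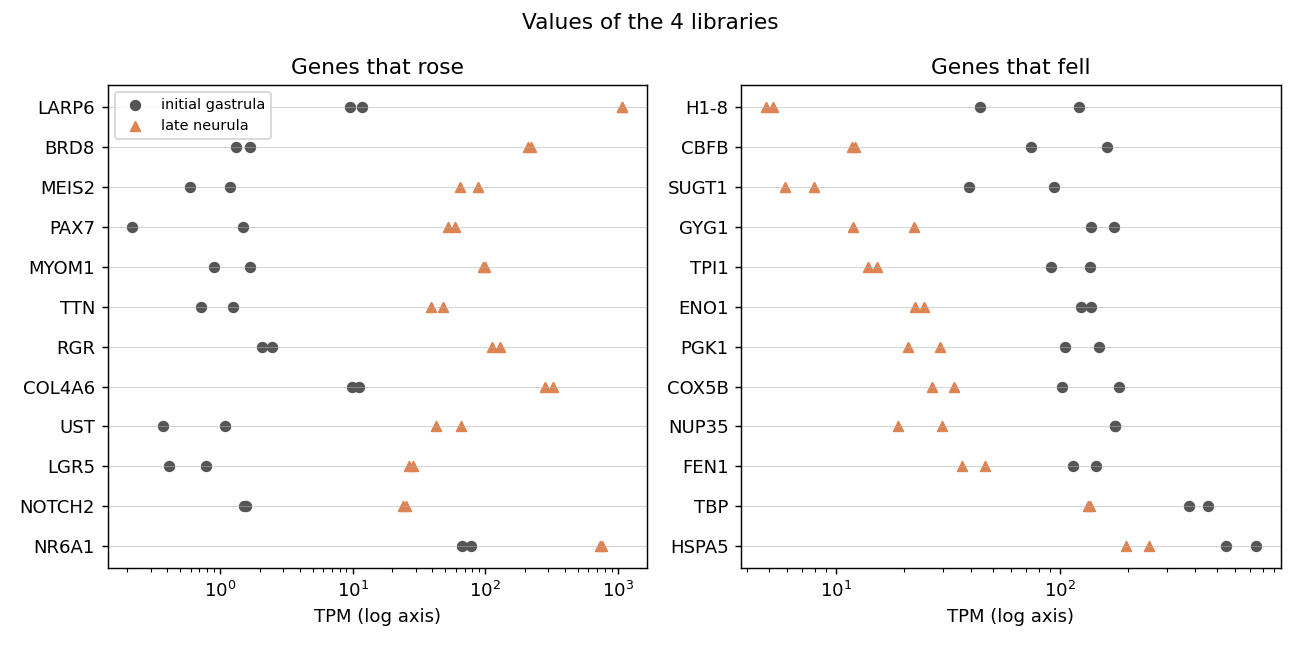
TPM (log axis) in the 4 libraries for 12 genes that rose (left) and 12 that fell (right), with circles for the initial gastrula and triangles for the late neurula, and no averaging. For each of these genes the libraries of the stages do not overlap, as in MEIS2, which went from at most 1.20 TPM to at least 64.2.

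Muscle genes had the largest share of rises of the 22 lists. Of 20 tested members of the contractile apparatus 17 rose and 2 fell, with a median log2 fold change of 3.79, which was 2.65 with limma on log2(TPM + 1) and between 3.55 and 3.86 with the other scalings. The number that rose was 17 without any one of the 4 libraries. MYOM1 (KY21.Chr2.1464), the myosin-binding protein of the M band, went from 1.68 and 0.902 TPM to 100 and 96.8, a log2 fold change of 6.46 (SE 0.39, adjusted p = 7e-08). KLHL41 (KY21.Chr1.864), a stabilizer of sarcomere proteins, went from 2.76 and 1.55 TPM to 116 and 107. TTN (KY21.Chr10.235), the spring-like titin, went from 1.25 and 0.717 TPM to 48.1 and 39.4. The libraries of the stages did not overlap for any of them, and the summed TPM of the list rose from between 634 and 784 to between 4075 and 4984. In whole embryos, more muscle cells and more muscle RNA per cell cannot be told apart, and the same holds for every tissue described here. The later courses of these genes diverged, since the mean of TTN was 219 TPM in the late tailbud while that of KLHL41 had peaked at 142 TPM in the mid tailbud and was 4.41 TPM in the larva. CKM (KY21.Chr1.294), the closest match to muscle creatine kinase, fell from 5.23 and 7.42 TPM to 1.92 and 3.11, and this call was lost without initial gastrula replicate 2 (log2 fold change -0.89, adjusted p = 0.058) and without late neurula replicate 1 (-0.86, adjusted p = 0.08). DMD.1 (KY21.Chr4.1056), a frog match to dystrophin, which links the cytoskeleton to the matrix, was the other fall, from 88.9 and 111 TPM to 56.6 and 55.5, and it lost its call without initial gastrula replicate 2 (-0.49, adjusted p = 0.058) and without late neurula replicate 2 (-0.56, adjusted p = 0.051). NEXN (KY21.Chr9.640), an actin-binding protein of the Z disc, was not called (1.41 and 4.84 against 5.56 and 6.92 TPM, adjusted p = 0.12) but was called without initial gastrula replicate 2 (2.31, adjusted p = 0.021).

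Extracellular matrix genes and integrins rose in 20 of 38 tested members and fell in 2, with a median log2 fold change of 1.11 (0.65 to 1.17 over the scalings). Leaving out 1 library at a time left between 18 and 21 rises. COL4A6 (KY21.Chr1.1213), a chain of basement membrane collagen IV, was at 9.85 and 11.1 TPM in the initial gastrula and at 323 and 283 in the late neurula (log2 fold change 5.07, SE 0.16, adjusted p = 3.6e-10). Its stage mean in the mid tailbud was 934 TPM. COL21A1 (KY21.Chr1.567), a collagen associated with fibrils, went from 3.70 and 4.23 TPM to 245 and 156, and ITGB4 (KY21.Chr13.475), an integrin chain that binds laminin, from 0.719 and 0.553 TPM to 17.8 and 18.4. Among enzymes of proteoglycan and glycosaminoglycan synthesis 6 of 19 rose and 3 fell, with a median of 0.10 that was negative under library totals (-0.14) and under limma on log2(TPM + 1) (-0.10), and without late neurula replicate 1 3 rose and 1 fell. This median was -0.07 without initial gastrula replicate 1, 0.28 without initial gastrula replicate 2, 0.19 without late neurula replicate 1 and -0.01 without late neurula replicate 2. The largest rise there was that of UST (KY21.Chr10.588), a uronyl sulfotransferase acting on dermatan and chondroitin sulfate, from 1.10 and 0.372 TPM to 65.8 and 42.9 (log2 fold change 6.42, SE 0.52, adjusted p = 9.1e-07). The list counted here is not of enzymes alone, since it also holds GPC5 (KY21.Chr1.664), a membrane-anchored heparan sulfate proteoglycan. GPC5 was among the rises, from 29.8 and 17.7 TPM to 93.4 and 92.3.

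LARP6 (KY21.Chr11.260), which in mammals binds collagen mRNAs, was one of the largest rises. It was at 9.49 and 11.8 TPM in the initial gastrula and at 1086.7 and 1086.6 in the late neurula, a log2 fold change of 6.89 (SE 0.29, adjusted p = 2.6e-09). Its mean was 29.0 TPM in the mid tailbud and 167 in the late tailbud, so the late neurula level was the highest of the series.

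Genes of neurons and sensory cells changed unevenly. Of 35 tested members 10 rose and 4 fell, and their median of 0.10 was negative under library totals (-0.15) and under limma on log2(TPM + 1) (-0.11). It was 0.28 without initial gastrula replicate 1, 0.01 without late neurula replicate 1 and 0.19 without late neurula replicate 2. RGR (KY21.Chr12.157), an opsin that converts retinal in vertebrate eyes, went from 2.48 and 2.07 TPM to 129 and 112 (log2 fold change 5.96, SE 0.23, adjusted p = 1.1e-09). RLBP1 (KY21.Chr11.800), a carrier of retinaldehyde, went from 0.419 and 0.944 TPM to 19.6 and 9.82, and NOVA2 (KY21.Chr11.823), a neuronal splicing factor, from 3.78 and 2.0 to 48.0 and 32.5. Their highest stage means came later, 547 TPM for RGR in the late tailbud and 209 for RLBP1 in the larva. ASIC1 (KY21.Chr1.2051), a proton-gated sodium channel, dropped from 70.9 and 76.6 TPM to 12.6 and 12.9 (log2 fold change -2.32, SE 0.21, adjusted p = 2.3e-06) after 68.4 TPM in the unfertilized egg, and was at 51.8 TPM again in the larva. NCAM2 (KY21.Chr10.147), a neural cell adhesion molecule, followed the same course, with 58.9 TPM in the initial gastrula, 18.7 in the late neurula and 93.7 in the larva as stage means.

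Among axon guidance ligands and receptors 7 of 15 tested members rose and 3 fell, with a median log2 fold change of 0.35 (0.11 to 0.41 over the scalings). The median was 0.18 without initial gastrula replicate 1 and 0.53 without initial gastrula replicate 2. NRCAM (KY21.Chr1.1606), an adhesion molecule of growing axons, rose from 14.9 and 16.3 TPM to 82.5 and 73.6. EFNB3 (KY21.Chr1.258), an ephrin ligand, went from 10.4 and 14.0 TPM to 70.0 and 79.7, and EPHA7 (KY21.Chr1.301), an ephrin receptor, from 26.8 and 15.7 to 95.2 and 86.7. The log2 fold changes of EFNB3 and EPHA7 were 2.82 (SE 0.28) and 2.30 (SE 0.25), and whether their products bind each other was not tested. Of 20 tested members of FGF-ERK and receptor tyrosine kinase signalling, which share these 2 genes, 4 rose and 3 fell, and under library totals 4 rose and 8 fell. LTK (KY21.Chr11.306), a receptor tyrosine kinase, was at 17.7 and 14.7 TPM before and at 159 and 148 after, and its mean in the late tailbud was 9.59 TPM. PTPN11 (KY21.Chr1.1411), the phosphatase SHP2 that relays receptor signals to ERK, fell by 1.29 on the log2 scale and INSR (KY21.Chr11.436), an insulin receptor match, by 1.26.

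In the Notch pathway, through which neighbouring cells signal by contact, matches to a receptor and to a ligand rose. A match to an enzyme that activates ligands fell, and the other called members of the list, which went both ways, are not named. NOTCH2 (KY21.Chr11.10) went from 1.51 and 1.57 TPM to 23.9 and 25.4 (log2 fold change 4.21, SE 0.42, adjusted p = 7.8e-06). The ligand JAG1 (KY21.Chr11.1244) went from 6.46 and 3.98 TPM to 43.3 and 39.6 (log2 fold change 3.19, SE 0.29, adjusted p = 2.9e-06). MIB1 (KY21.Chr1.1842), the ubiquitin ligase that makes Notch ligands competent, was at 54.1 and 48.8 TPM before and at 12.3 and 19.6 after (log2 fold change -1.50, SE 0.29, adjusted p = 0.0015). Of the 13 tested members 4 rose and 2 fell, with a median of 0.12 that was negative under library totals (-0.11) and limma on log2(TPM + 1) (-0.08), and under both of these 5 members fell. Without initial gastrula replicate 2 the median was 0.55.

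The Wnt and planar polarity list split evenly, with 5 of 16 tested members rising and 5 falling. Receptors and a secreted modulator were 4 of the 5 rises. LGR5 (KY21.Chr11.628), a receptor for R-spondin, went from 0.411 and 0.784 TPM to 26.7 and 28.8 (log2 fold change 5.72, SE 0.33, adjusted p = 3.3e-08). Its relative LGR4 (KY21.Chr11.934) rose by 1.44 on the log2 scale, and KREMEN1 (KY21.Chr11.1077), a receptor of the inhibitor Dickkopf, by 1.59. SFRP5 (KY21.Chr1.859), a secreted Wnt antagonist, was already abundant at 266 and 235 TPM and reached 975 and 772, its highest stage mean of the series. PTK7 (KY21.Chr11.791), a planar polarity receptor that acts in vertebrate neural tube closure, fell from 119 and 104 TPM to 23.9 and 34.2 (log2 fold change -1.74, SE 0.23, adjusted p = 8.8e-05). PYGO2 (KY21.Chr4.840), a cofactor of beta-catenin, fell from 195 and 144 TPM to 55.1 and 59.9, and DAAM2 (KY21.Chr10.745), a formin downstream of Dishevelled, from 170 and 190 to 90.2 and 97.6. Without late neurula replicate 1, or without initial gastrula replicate 1, 3 members of this list fell.

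**Figure D3:**
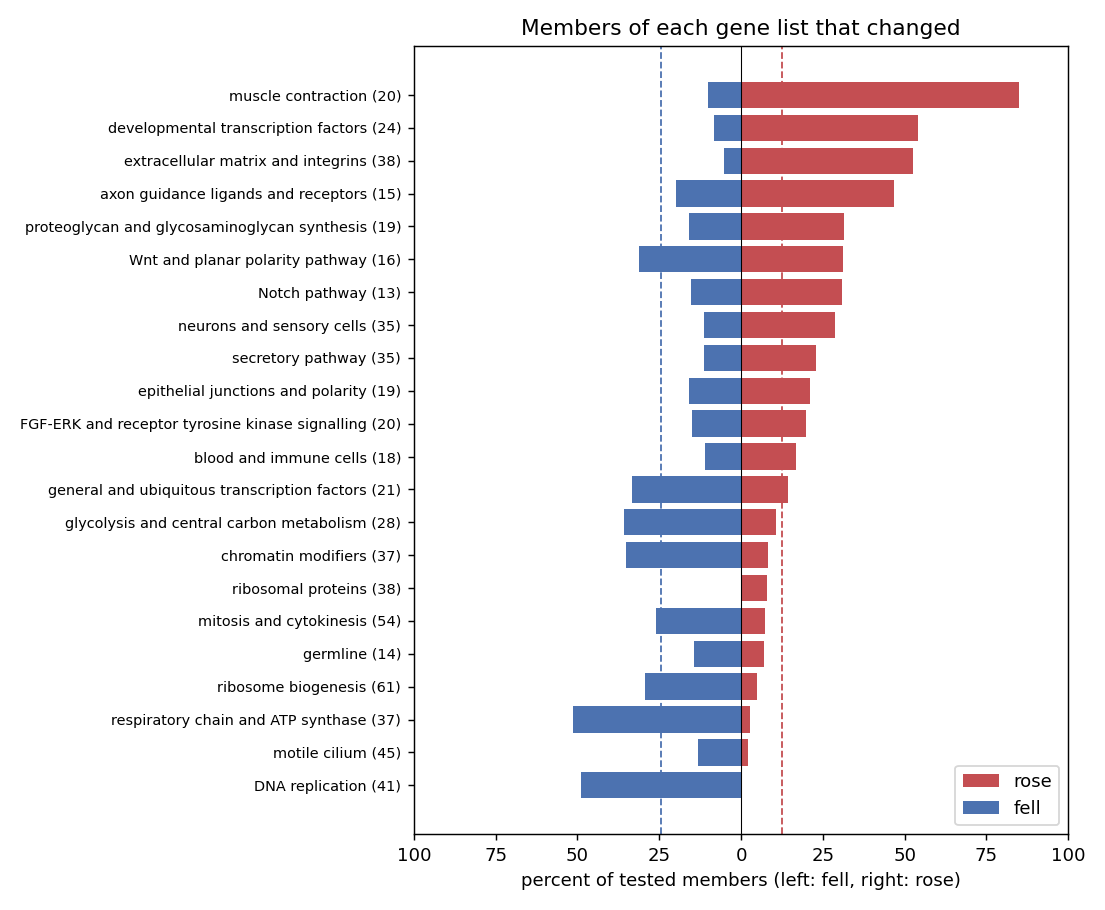
Percent of the tested members of each gene list that rose (red, right) or fell (blue, left), with the number tested in parentheses. Dashed lines mark the shares over all tested genes with a symbol, 12.6% for rises and 24.4% for falls, against which muscle contraction (85.0% rose) and the respiratory chain (51.4% fell) are at the extremes.

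Many subunits of oxidative phosphorylation fell, while 17 were not called. Of 37 tested subunits of the respiratory chain and ATP synthase 19 fell and 1 rose, with a median log2 fold change of -0.86 (-1.11 to -0.79 over the scalings, -0.49 without initial gastrula replicate 1 and -1.15 without initial gastrula replicate 2), and leaving out 1 library at a time left between 16 and 21 falls. COX5B (KY21.Chr1.226), a subunit of cytochrome c oxidase, was at 183 and 102 TPM in the initial gastrula and at 33.4 and 26.7 in the late neurula (log2 fold change -2.05, SE 0.30, adjusted p = 0.00022). COX4I2 (KY21.Chr5.352), of the same enzyme, went from 468 and 447 TPM to 111 and 145, and NDUFB7 (KY21.Chr5.571), of complex I, from 151 and 100 to 29.3 and 31.9. The summed TPM of the list was 13630 and 10080 before and 6324 and 5521 after, so the stages did not overlap, and within both stages replicate 1 was the higher library.

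Glycolysis and central carbon metabolism was split within the pathway. Of 28 tested members 10 fell (35.7%) and 3 rose (10.7%), beside 24.4% and 12.6% of all genes with a symbol. The median log2 fold change was -0.26 (-0.50 to -0.20 over the scalings), near the -0.23 of all genes with a symbol. TPI1 (KY21.Chr7.526), triose phosphate isomerase, went from 136 and 90.4 TPM to 13.9 and 15.1 (log2 fold change -2.77, SE 0.27, adjusted p = 4.4e-06). ENO1 (KY21.Chr8.849), enolase, went from 124 and 137 TPM to 22.5 and 24.6, and PGK1 (KY21.Chr14.401), phosphoglycerate kinase, from 105 and 149 to 20.8 and 28.9. The stage mean of ENO1 was 9.33 TPM in the mid tailbud and 167 in the larva, while that of PGK1 was 19.8 in the larva. GAPDH (KY21.Chr11.276), the dehydrogenase that acts between TPI1 and PGK1, was at 896 and 678 TPM against 714 and 581 and was not called (log2 fold change -0.07, adjusted p = 0.87). Its fold change was 0.18 without initial gastrula replicate 1 and 0.12 without late neurula replicate 2, also not called. ALDOA (KY21.Chr5.984), aldolase, which acts a step before TPI1, rose from 162 and 107 TPM to 248 and 170 (log2 fold change 0.85, adjusted p = 0.016). That call was lost under library totals (0.60, adjusted p = 0.064), without initial gastrula replicate 2 (0.55, adjusted p = 0.15) and without late neurula replicate 1 (0.49, adjusted p = 0.22). All 3 rises of the list lost their call under library totals, where 11 members fell, and without late neurula replicate 1, where 7 fell. GYG1 (KY21.Chr1.36), glycogenin, which primes glycogen synthesis, was one of the largest falls of all genes with a symbol, from 137 and 173 TPM to 11.8 and 22.2 (log2 fold change -3.00, SE 0.26, adjusted p = 1.6e-06).

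Genes of DNA replication fell in 20 of 41 tested members and rose in none, with a median log2 fold change of -0.63 (-0.87 to -0.57 over the scalings). In edgeR 0 members were higher at an unadjusted p under 0.05, and DESeq2 called 0 rises. The count was sensitive to single libraries, with 10 falls without late neurula replicate 1, 12 without late neurula replicate 2, 13 without initial gastrula replicate 1 and 16 without initial gastrula replicate 2. FEN1 (KY21.Chr14.60), the flap endonuclease of Okazaki fragments, went from 144 and 114 TPM to 46.2 and 36.3 (log2 fold change -1.43, SE 0.20, adjusted p = 0.00016), and ORC4 (KY21.Chr5.321), a subunit of the origin recognition complex, from 100 and 91.4 to 32.6 and 30.6. GMNN (KY21.Chr1.1139), geminin, the inhibitor of origin licensing, was at 608 and 552 TPM against 374 and 377 and was not called (log2 fold change -0.42, adjusted p = 0.21).

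Genes of mitosis and cytokinesis fell in 14 of 54 tested members and rose in 4, a share of falls (25.9%) near the 24.4% of all genes with a symbol and a median log2 fold change of -0.35. Under library totals 27 fell and 1 rose, and without late neurula replicate 1 all 4 rises lost their call and 10 members fell. PKMYT1 (KY21.Chr11.977), a kinase that inhibits CDK1, went from 115 and 149 TPM to 34.6 and 42.6 (log2 fold change -1.57, SE 0.16, adjusted p = 6e-06). ANAPC7 (KY21.Chr2.28), of the anaphase-promoting complex, fell from 92.0 and 87.4 TPM to 25.4 and 29.6, and NDC80 (KY21.Chr1.1942), of the outer kinetochore, from 118 and 99.7 to 36.1 and 49.3.

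Chromatin modifiers fell in 13 of 37 tested members and rose in 3, with a median log2 fold change of -0.43 (-0.67 to -0.37 over the scalings), and 7 fell without initial gastrula replicate 1. The falls were 35.1% of the tested members and the rises 8.11%, beside 24.4% and 12.6% of all genes with a symbol. NSD2 (KY21.Chr12.650), a histone H3 methyltransferase, fell by 1.12 on the log2 scale and ARID2 (KY21.Chr2.1291), of a SWI/SNF remodelling complex, by 1.04. TET2 (KY21.Chr12.756), which oxidizes methylated cytosine, rose from 87.1 and 57.8 TPM to 213 and 256 (log2 fold change 1.89, SE 0.31, adjusted p = 0.00059). It was at a mean of 37.8 TPM by the mid tailbud, so its late neurula level was the highest of the 8 stages. KDM6A (KY21.Chr1.1367), a histone H3 demethylase, rose from 180 and 198 TPM to 254 and 273. The largest fall of any gene meeting the naming rule with a symbol was that of H1-8 (KY21.Chr10.208), whose human match is the linker histone of oocytes. It was at 121 and 43.6 TPM before and at 5.19 and 4.83 after (log2 fold change -3.84, SE 0.56, adjusted p = 0.00018), and its stage mean was 0.646 TPM by the mid tailbud.

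Of 61 tested ribosome biogenesis genes 18 fell and 3 rose, with a median log2 fold change of -0.27 (-0.51 to -0.20 over the scalings, -0.14 without initial gastrula replicate 1 and -0.17 without late neurula replicate 2), and the falls numbered between 11, without initial gastrula replicate 1, and 16, without initial gastrula replicate 2, when 1 library was left out. The falls were 29.5% of the tested members and the rises 4.92%, beside 24.4% and 12.6% of all genes with a symbol. The median was near the -0.23 of all genes with a symbol. UTP3 (KY21.Chr1.1791), of the processome that matures small-subunit rRNA, went from 153 and 121 TPM to 36.0 and 43.5. RPF1 (KY21.Chr8.1051), a large-subunit assembly factor, and RRP8 (KY21.Chr9.352), a nucleolar methyltransferase, fell by 1.26 and 1.34 on the log2 scale, whereas WDR75 (KY21.Chr8.1235), of the same processome as UTP3, rose from 19.8 and 13.4 TPM to 45.0 and 37.3. Of 38 ribosomal proteins 3 rose and none fell in edgeR, with 0 lower at an unadjusted p under 0.05 and 0 falls called by DESeq2, and their median of 0.13 was negative under library totals (-0.11) and under limma on log2(TPM + 1) (-0.06). It was also negative without initial gastrula replicate 2 (-0.12) and without late neurula replicate 1 (-0.15), and was 0.48 without initial gastrula replicate 1 and 0.39 without late neurula replicate 2. Without late neurula replicate 1 the 3 rises lost their call, and without late neurula replicate 2 7 members rose. RPL7 (KY21.Chr2.1079), one of the 3, was at 284 and 246 TPM against 465 and 330, and it lost its call without late neurula replicate 1 (log2 fold change 0.47, adjusted p = 0.081).

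In the secretory pathway 8 of 35 tested members rose (22.9%, against 12.6% of all genes with a symbol) and 4 fell (11.4%, against 24.4%). Under library totals, and under limma on log2(TPM + 1), 8 rose and 7 fell. The median of 0.20 was slightly negative under library totals (-0.03) and limma on log2(TPM + 1) (-0.01). It was 0.13 without late neurula replicate 1. SSR3 (KY21.Chr1.1484), a subunit of the translocon-associated complex, rose from 654 and 679 TPM to 1154.9 and 1261.2. SURF4 (KY21.Chr13.276), a cargo receptor of the endoplasmic reticulum, rose by 1.09 and COPE (KY21.Chr4.1010), a coat protein of COPI vesicles, by 1.12 on the log2 scale. The chaperone HSPA5 (KY21.Chr9.937), or BiP, was the largest of the 4 falls, from 549 and 747 TPM to 196 and 248 (log2 fold change -1.34, SE 0.20, adjusted p = 0.00019). The other falls are not named.

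Epithelial junction and polarity genes rose in 4 and fell in 3 of 19 tested members. These are 21.1% and 15.8%, beside 12.6% and 24.4% of all genes with a symbol. The median was 0.04 and was negative under library totals (-0.19) and limma on log2(TPM + 1) (-0.16). It was 0.14 without initial gastrula replicate 1, 0.08 without initial gastrula replicate 2 and 0.02 without late neurula replicate 1. Without initial gastrula replicate 1 or late neurula replicate 1, 1 rose and all 3 falls lost their call. FAT4 (KY21.Chr1.988), a giant cadherin, was the largest of the rises at a log2 fold change of 0.86 (adjusted p = 0.0024). The 3 falls, of up to 0.71 on the log2 scale, are not named. Motile cilium genes fell in 6 of 45 tested members and rose in 1, while 2 fell without initial gastrula replicate 1 or late neurula replicate 1 and 3 without late neurula replicate 2. The share of cilium genes that fell, 13.3%, was below the 24.4% of all genes with a symbol, and 2.22% rose, against 12.6%. CFAP70 (KY21.Chr8.1239), an axonemal protein, went from 24.2 and 25.2 TPM to 7.05 and 7.75. Of 14 germline genes 2 fell (14.3%, against 24.4% of all genes with a symbol) and 1 rose (7.14%, against 12.6%). The median log2 fold change of the germline genes was -0.36 (-0.59 to -0.29 over the scalings). The 2 falls, of up to 0.84 on the log2 scale, are not named. The 1 rise was TDRD5 (KY21.Chr1.1286), a tudor-domain protein of the piRNA pathway, at 34.1 and 27.1 TPM against 80.7 and 73.9. DDX4 (KY21.UAContig2.2), the RNA helicase Vasa of germ cells, was at 254 and 279 TPM against 354 and 252 and was not called (adjusted p = 0.11), but was called without late neurula replicate 2 (log2 fold change 0.67, adjusted p = 0.012). Of 18 genes of blood and immune cells 3 rose (16.7%, against 12.6% of all genes with a symbol) and 2 fell (11.1%, against 24.4%). The median log2 fold change was 0.23, which was 0.0 under library totals, -0.02 without initial gastrula replicate 1 and -0.07 without late neurula replicate 2. Their summed TPM went from between 604 and 715 to between 355 and 414. Most of that drop was 1 gene, C8B (KY21.Chr1.914), a match to a complement component, which fell from 305 and 164 TPM to 38.7 and 24.8. MRC1 (KY21.Chr1.2266), a lectin-like receptor match, rose from 19.1 and 24.4 TPM to 48.3 and 60.3. The other 2 rises, with late neurula means of only 6.48 and 0.981 TPM, are not named.

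**Figure D4:**
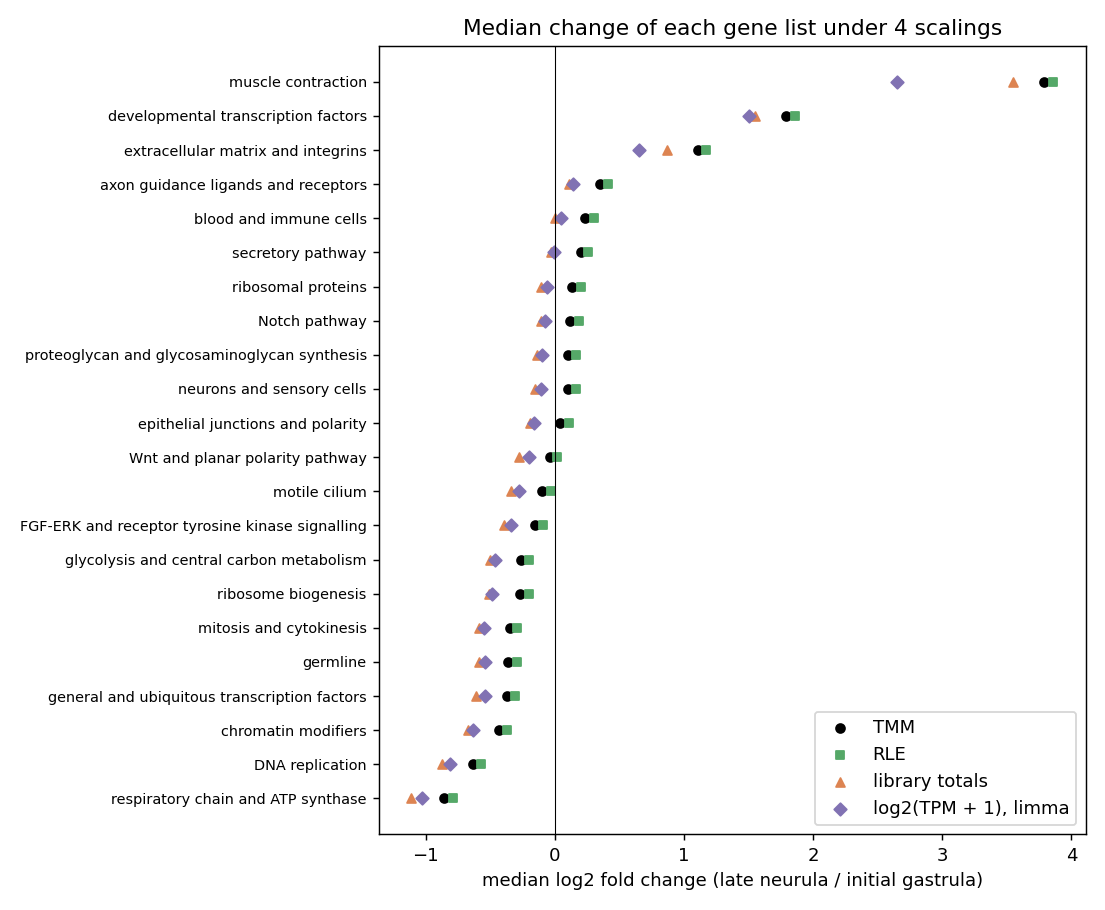
Median log2 fold change of the tested members of each gene list (horizontal axis) with TMM factors (circles), RLE factors (squares), library totals (triangles) and limma on log2(TPM + 1) (diamonds). Lists at the extremes, such as muscle contraction and the respiratory chain, keep their side of 0, while several in the middle, such as ribosomal proteins (0.13 and -0.11), cross it.

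Several of the largest single-gene rises lay outside the lists. BRD8 (KY21.Chr1.2017), whose closest match is a bromodomain protein, went from 1.33 and 1.67 TPM to 221 and 209 (log2 fold change 7.33, SE 0.39, adjusted p = 1.7e-08). AKR1C2 (KY21.Chr1.1899), an aldo-keto reductase match, went from 0.515 and 1.33 TPM to 107 and 114. Both were below 2 TPM in the initial gastrula libraries and above 100 in the late neurula libraries, as was BTBD19 (KY21.Chr2.138), at 1.65 and 0.737 TPM before and 137 and 127 after. MEP1B (KY21.Chr1.611), a match to a metalloprotease, and CXORF38 (KY21.Chr7.845), of no described role, rose by 7.49 (SE 0.47) and 8.07 (SE 0.38) on the log2 scale, to means of 32.3 and 34.6 TPM. CETN3 (KY21.Chr11.414), a centrin match of the centrosome, and PRSS12 (KY21.Chr1.26), a serine protease match, rose by 6.77 and 6.94. For HSPB1 (KY21.Chr10.13), a small heat shock protein match, the initial gastrula libraries held 1 count together and the late neurula libraries 291. The ratio of depth-scaled counts was 359, with an exact 95% interval of 64 to 14200 that covers counting error only.

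Large changes were also found among genes without a symbol. KY21.Chr5.34 had 1 count in the initial gastrula and 874 in the late neurula, a ratio of 1080 with an exact 95% counting interval of 193 to 42700. KY21.Chr10.1042 had 2 counts against 1000, a ratio of 617 with an interval of 170 to 5100, and its stage mean of 28.5 TPM in the late neurula stood between 0.0549 TPM before and 0.687 TPM in the mid tailbud. Under the naming rule the largest falls without a symbol were those of KY21.Chr14.697 and KY21.Chr10.704. KY21.Chr14.697 went from 77.2 and 36.6 TPM to 1.25 and 0.427 (log2 fold change -5.84, SE 0.80, adjusted p = 0.00011), and KY21.Chr10.704 from 31.7 and 19.6 to 0.312 and 0.488 (-5.79, SE 0.71, adjusted p = 4.1e-05). Their stage means in the unfertilized egg were 1.53 and 0.0291 TPM, and in the larva they were at 18.7 and 6.43 TPM.

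Further falls of genes with a symbol lay outside the lists. CBFB (KY21.Chr5.812), the partner subunit of RUNX factors, went from 161 and 74.1 TPM to 11.7 and 12.1 (log2 fold change -3.11, SE 0.63, adjusted p = 0.0025). SUGT1 (KY21.Chr13.337), a cochaperone of kinetochore assembly, went from 94.0 and 39.0 TPM to 5.87 and 7.97. NUP35 (KY21.Chr7.158), a nuclear pore subunit, went from 175 and 176 TPM to 18.9 and 29.5. Their means in the unfertilized egg were 69.9, 49.4 and 186 TPM. C8ORF76 (KY21.Chr5.1108), of no described role, fell by 2.92 on the log2 scale, SLCO1B7 (KY21.Chr1.1930), an organic anion transporter match, by 2.35 and NIT1 (KY21.Chr8.643), an amidase match, by 2.43.

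The unfertilized egg libraries, which were not among the 4 compared, held most of the genes that fell. Of the genes that fell, 2029 of 2077 (97.7%) had a mean of at least 2 TPM in the unfertilized egg, the study's limit of detection, against 1089 of 2292 (47.5%) of those that rose 9485 of 14623 (64.9%) of all tested genes and 62.1% of those not called. The egg libraries entered the estimate of the spread, and a gene must be detected before it can fall, so these shares are a description. In the 6 other stages, genes that rose had their highest mean in a tailbud stage or the larva in 91.4% of cases (2041 of 2232 that reached 2 TPM in one of them), with the mid tailbud the most frequent (41.1%). Genes that fell did so in 4.31%, and were most often highest in the fertilized egg (48.8%) or at the 16-cell stage (35.4%). Of all tested genes that reached 2 TPM in one of these stages, 44.5% were highest in a tailbud stage or the larva, 27.6% in the fertilized egg and 20.5% at the 16-cell stage. The median over genes that fell was 74.2 TPM in the initial gastrula, 30.7 in the late neurula and 15.3 in the mid tailbud, so levels continued to decline after the interval, and the median over genes that rose went from 3.99 to 31.9 and then 48.1 TPM.

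**Figure D5:**
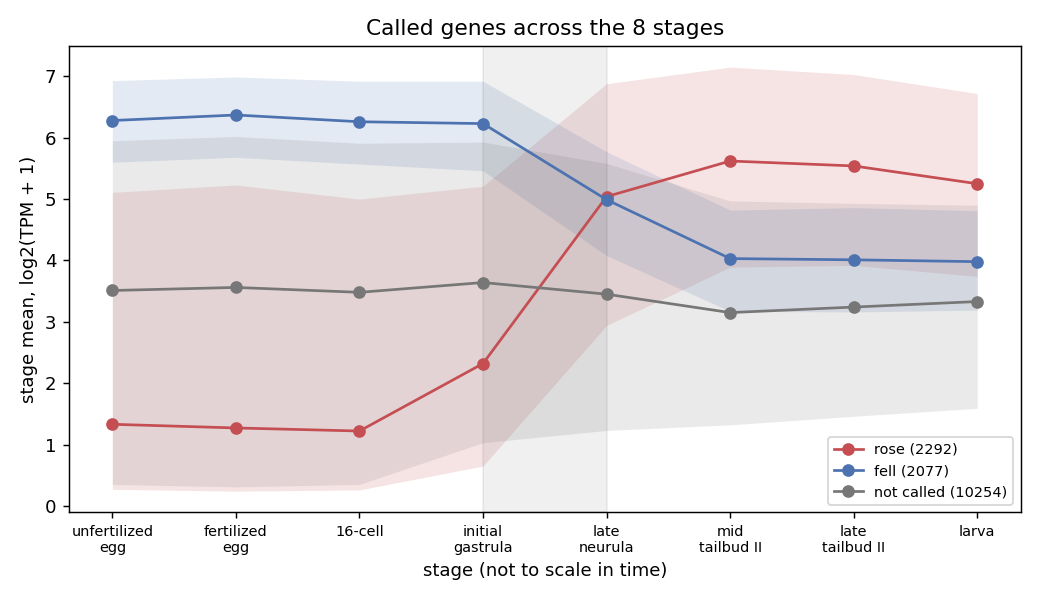
Median of the stage means, as log2(TPM + 1), over the 8 stages for the 2292 genes that rose (red), the 2077 that fell (blue) and the 10254 not called (grey), with shading from the lower to the upper quartile of genes and a grey band over the interval compared. Stages are evenly spaced and not to scale in time. The medians of the called genes cross at the late neurula, because the genes were chosen on that change, and they separate further by the mid tailbud.

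Gains of detection outnumbered losses, and few changed genes were switched off outright. Genes that passed 2 TPM in the stage mean numbered 1312 and those that dropped below it 392, and 736 of the gains and 61 of the losses were among the called genes. Both libraries of each stage bore out 804 gains and 161 losses. Of the gained genes 180 reached at least 20 TPM, whereas 5 of the lost genes had started there. Most genes that fell (2009 of 2077) were still at 2 TPM or more in the late neurula, and 1329 of those that rose were already at that level in the initial gastrula.

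The most abundant transcripts took a larger share of the total in the late neurula. The 100 most abundant genes held 12.6% ± 0.294 (SD, n = 2) of KY21 TPM in the initial gastrula and 18.5% ± 0.72 (SD, n = 2) in the late neurula. With all rows of the tables in place of KY21 genes the shares were 28.6% ± 0.704 and 33.1% ± 0.413 (SD, n = 2). The sets shared 56 genes, and 43 of the 44 genes new to the late neurula set rose, while 13 of the 44 that left the initial gastrula set fell. Sets and calls were drawn from the same libraries, so these counts are a description and do not test the change. KY21.Chr14.722, without a symbol, went from rank 621 to rank 2, from 225 and 216 TPM to 5559.9 and 5137.9 (log2 fold change 4.81, SE 0.27, adjusted p = 2.6e-08), and its stage mean was 26403.2 TPM in the larva. ACTB (KY21.Chr11.687), a cytoskeletal actin match, went from rank 13 to rank 5, from 1845.1 and 1410.9 TPM to 4139.1 and 3154.9. KY21.Chr5.383, without a symbol, stayed near the top at ranks 2 and 3 (3153.4 and 4971.2 against 5008.9 and 5157.2 TPM). It was not called (log2 fold change 0.54, adjusted p = 0.085), and it was called without initial gastrula replicate 2 (0.86, adjusted p = 0.025).

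The changes were spread over the genome as far as the identifiers, which name a chromosome, show it. Across the 14 chromosomes between 12.4% and 17.9% of tested genes rose and between 11.8% and 17.2% fell.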

How the data were processed

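Per the study's methods, the authors trimmed reads (Trim Galore), quantified them against the KY21 transcriptome with Salmon, correcting for sequence and GC bias, and summed transcripts per gene. The deposited gene values are estimated counts, 66.2% of them not whole, which were rounded to whole numbers for the count tests, and the deposited TPM values, which were scaled with 36 rows that are not KY21 genes included. Those rows held 3.6% to 4.1% of counts and 18.3% to 19.9% of TPM in the 4 libraries. The authors' table of normalized values was not used.

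Counts were tested with edgeR 4.0.16 (robust quasi-likelihood, TMM, low-count filter by stage) over all 16 libraries and 14643 rows, with no replicate term. TMM factors were 1.218 and 1.229 in the initial gastrula and 1.009 and 1.066 in the late neurula. Alternatives used DESeq2 1.42.0, limma 3.58.1 on log2(TPM + 1), RLE factors, library totals, other filters, a replicate block and each library left out. On simulated counts for this contrast over 14643 rows, 100 genes drawn at random were set to change by 2-fold and 100 by 4-fold. The test recovered 17% and 53% of them. In the data 29.9% of tested genes were called, a far larger share than was changed in the simulation, so recovery in the data was not measured. Replicates differed by more than counting noise (mean chi-square per gene 69.6 and 47.1) and correlated at 0.971 and 0.968 on log2(TPM + 1) across genes. Per the study's methods the replicates of a stage came from separate time courses, 1 of which also gave the protein samples, but not which number belongs to which.

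Gene lists (22) were assembled by hand from symbols. The comparison and the lists were chosen with earlier results of these data known. Genes were named by rule: the 12 largest rises and falls among called genes with a symbol, at least 10 TPM in the higher stage and non-overlapping TPM, the largest changes and the most abundant uncalled members of each list, all called members of the developmental factor, Notch and Wnt lists, the 2 largest changes each way without a symbol and the 5 most abundant genes per stage. Some of these, mostly those whose call was lost without 1 library, were left out of the text, and 1 result is not reported here. No paired test was chosen, since the labels tie no replicate number to a batch, so any pairing of same-numbered libraries was ignored. Fits with a replicate block are given below. Genome coordinates and sequences are not used here.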

Additional observations from a re-analysis of the deposited data

How the results depend on the processing

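The number of genes that fell was 2077 with the settings of the report and moved by over 1.5 times with library totals (3232), limma on log2(TPM + 1) (3232), only the 4 libraries (1332) and a log2 fold change of at least 1 (1051). Leaving out 1 library gave 1059 to 1524 falls, the fewest without late neurula replicate 1, and 1643 to 1923 rises. The 3232 falls of library totals and of limma are different sets that share 2982 rows. The share of called genes that rose, 52.5%, was 57.4% with RLE factors, 36.7% with library totals, 56.4% with DESeq2, 40.3% with limma, 59.6% with only the 4 libraries, 64.2% with a log2 fold change of at least 1 and 53.1% to 60.8% with 1 library left out. Members of all lists together that fell numbered 143, and 215 with library totals, 65 with a log2 fold change of at least 1 and 86 to 123 with 1 library left out. The share of genes detected in the egg among those that rose was 54.8% at 1 TPM, 39.3% at 5 TPM and 40.9% with the calls of library totals, among those that fell 96.8% at 5 TPM, and among genes not called 66.6%, 56.2% and 58.4% in the same order. The share of genes that rose and were highest in a tailbud stage or the larva was 95.2% with library totals and 88.7% with DESeq2. The cause of these shifts was not tested. With a replicate block over 16 libraries 2365 genes rose and 2207 fell, and with the block over only the 4 libraries, which leaves 1 residual degree of freedom, 3133 and 3056 (50.6% of calls rose). With that last fit 27 genes of DNA replication fell in place of 20, and GMNN was called (log2 fold change -0.40, adjusted p = 0.029). The labels give no shared batch for a number. With 2 libraries per stage, the deviations of same-numbered libraries correlated at 0.588 between these stages, and at -0.138 to 0.064 between either of them and any other stage. Among the egg and 16-cell stages the correlations were 0.701 to 0.754. The main fit ignores any such pairing. The 103 genes named gave values in 1545 combinations of gene and setting, and the call was lost in 19 of these and gained in 9. The direction reversed in 2, both for GAPDH, which was not called in either (0.18 without initial gastrula replicate 1 and 0.12 without late neurula replicate 2, against -0.07, and -0.29 without either of the other libraries). These genes were in part selected for keeping their call with each library left out, so this count says nothing of other genes. With 2 libraries per stage, changes of 2-fold can be missed, as most were in the simulation, which changed far fewer genes than were called here. How often that happened in the data was not measured, and genes below a few TPM carry large errors.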
